A study of Homo sapiens with 8 samples.

Results

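The genes described here are 9 host factors that restrict the replication of viruses: MX1, MX2, BST2, SHFL, SAMHD1, SAMD9, SAMD9L, RTP4 and ISG20. Their histone acetylation was measured as H3K27ac, acetylation of lysine on histone H3 that marks active promoters and enhancers, in chromatin immunoprecipitated with an Abcam antibody (ab4729) and sequenced. A peak was taken where it held the transcription start site (TSS) of one of these genes by the authors' annotation, where the nearest TSS on either side was theirs at up to 50 kb from the edge of the peak, or where it overlapped the gene on GRCh38. The rule used positions and names and no measured value, and it took 16 of the 31961 peaks. Of these, 9 covered the promoters, 1 for each gene, and the other 7 lay within genes or at a distance from a start.

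All 8 libraries came from clones grown out by dilution of CFPAC1, an established human cell line of pancreatic ductal adenocarcinoma, after infection with the lentiCRISPRv2 plasmid (spelled lentiCRIPSv2 in the labels), which all 4 clones carry. Control clones 1 and 4 are described with the plasmid and no guide. IRF1-guide clones 11 and 13 are described with wt Cas9 and a guide RNA against IRF1, which encodes a transcription factor of the interferon regulatory factor family. Each clone gave 1 library untreated (UT) and 1 after 2 hours with hIFNb, taken to mean human interferon beta, giving 4 groups of 2 libraries. Each genotype thus rests on 2 clones, and differences between clones and the effect of the guide can be separated only as far as the 2 clones of a genotype resemble each other.

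Interferon beta binds the IFNAR1 and IFNAR2 receptor, and the kinases JAK1 and TYK2 then activate STAT2, which joins IRF9 in the complex ISGF3. ISGF3 binds interferon-stimulated response elements in the promoters of many antiviral genes, and interferon regulatory factors such as IRF1 recognise related sequences. The 9 proteins act at different steps of infection. MX1 and MX2 are dynamin-like GTPases that block incoming viral ribonucleoproteins or capsids, BST2 (tetherin) holds budding virions at the cell surface, SAMHD1 hydrolyses the deoxynucleotides (dNTPs) that reverse transcription needs, SHFL inhibits programmed ribosomal frameshifting, ISG20 is an RNA exonuclease, RTP4 is a receptor chaperone with activity against flaviviruses, and SAMD9 and SAMD9L are neighbouring paralogs that restrict poxviruses.

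The promoters were compared for a core of the interferon-stimulated response element (GAAA, any 2 bases, GAAA), because the genes differed in their response to hIFNb. Promoter sequences from RefSeq on GRCh38.p14, which run from 250 bases before a start to 50 after it, matched 8 of the 9 genes by symbol, and MX2 was not among them. The core was searched on both strands, and 6 of the 8 genes held at least 1 match, against 3.57% of 35116 RefSeq promoter windows of this length. The first count is by gene, over 10 windows of which MX1 has 3, and the second is by window. The following stretches are given 5′ to 3′ along the gene, with matches of this core in capitals. The bases before the start are shown whole for RTP4 (chr3:187368135-187368384, plus strand) with 2 matches, MX1 (chr21:41420308-41420578, plus strand, carried on to a match that begins 11 bases after the start) and SHFL (chr19:10086067-10086316, plus strand), which rose strongly, and for SAMHD1 (chr20:36951709-36951958, minus strand), which rose without a match in this window.
RTP4: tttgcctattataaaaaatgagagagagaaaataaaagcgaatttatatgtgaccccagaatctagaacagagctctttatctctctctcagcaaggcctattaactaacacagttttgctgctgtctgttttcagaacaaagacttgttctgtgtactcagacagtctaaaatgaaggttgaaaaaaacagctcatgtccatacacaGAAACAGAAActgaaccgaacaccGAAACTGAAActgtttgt
MX1: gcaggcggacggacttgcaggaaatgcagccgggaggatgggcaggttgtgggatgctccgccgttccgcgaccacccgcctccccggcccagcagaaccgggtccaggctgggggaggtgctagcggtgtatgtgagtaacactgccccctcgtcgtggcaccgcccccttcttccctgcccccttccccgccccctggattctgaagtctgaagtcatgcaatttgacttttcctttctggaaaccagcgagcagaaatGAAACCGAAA
SHFL: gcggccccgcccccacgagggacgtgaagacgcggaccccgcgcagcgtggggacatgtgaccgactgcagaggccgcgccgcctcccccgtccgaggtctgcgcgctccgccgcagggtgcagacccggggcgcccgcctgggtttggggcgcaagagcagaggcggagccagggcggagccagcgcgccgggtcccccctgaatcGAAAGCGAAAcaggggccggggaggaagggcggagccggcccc
SAMHD1: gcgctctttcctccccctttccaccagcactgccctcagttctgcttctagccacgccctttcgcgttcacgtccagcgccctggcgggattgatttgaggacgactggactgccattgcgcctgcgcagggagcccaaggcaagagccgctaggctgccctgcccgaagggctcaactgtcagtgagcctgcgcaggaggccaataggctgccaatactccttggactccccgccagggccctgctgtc

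Shorter stretches around the match are shown for BST2 (chr19:17405725-17405780, minus strand), where 2 overlapping matches form 1 run, for ISG20 (chr15:88638927-88638976, plus strand) and for SAMD9 (chr7:93118086-93118135, minus strand), which holds a match and whose promoter peak did not pass the test.
BST2: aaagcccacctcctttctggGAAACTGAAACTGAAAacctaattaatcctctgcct
ISG20: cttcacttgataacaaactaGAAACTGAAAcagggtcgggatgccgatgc
SAMD9: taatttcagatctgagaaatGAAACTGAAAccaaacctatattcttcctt

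The first base of the match lay 42 and 18 bases before the start in RTP4, 43 in SHFL, 69 in ISG20, 130 and 124 in BST2 and 136 in SAMD9. For ISG20 this start is that of the promoter window, at 88639016, while the RefSeq gene begins at 88635632. MX1 has 3 RefSeq promoter windows, of which the second, also within the promoter peak, held no match, and the third, outside the peak, held 1 on the opposite strand. SAMD9L and SAMHD1 held none of these letters in the window. The core of the gamma-activated site, TTCNNNGAA, which reads the same on both strands, was found in BST2 and in the third MX1 window, against 7.66% of all windows, and 1 of its BST2 matches overlaps the run of the first core. Over all promoter peaks whose gene had a RefSeq window, 84 of 327 with the response element core (25.69%) and 302 of 6613 without it (4.57%) rose with hIFNb by the test described next. Peaks were joined to windows by the gene the authors named them for, and peaks of the genes described here were included. MX2, without a window, and BST2, whose peak is named for MVB12A, did not enter under their own names. A match is a description of letters, not of a bound site.

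Values are scores, the counts per peak that the authors normalised and rounded to whole numbers, and their totals ran from 3277561 to 3460390 per library. The number of reads behind a score is not given in the sources used here, so no counting error could be attached. In 6 of the libraries 10 to 30 of the whole numbers up to 100 were never used, as multiples of a single factor of 1.11 to 1.42 per library leave them, while both untreated control libraries used all of them. Peaks overlapped all 9 epithelial marker genes, at 10 to 49.3 score units per kb of peak with KRT19 at the top, but also 6 of 7 leukocyte, 3 of 6 fibroblast, 3 of 4 endothelial and 1 of 4 acinar and islet genes, so that overlap alone does not separate cell types here. The 64.2 kb peak that holds the IRF1 start scored 2014 and 1306 in untreated control clones 1 and 4, 3003 and 2159 after hIFNb, 1332 and 1187 in untreated IRF1-guide clones 11 and 13 and 2265 and 2033 after hIFNb. H3K27ac at this peak does not report the edit or the protein, so it does not check the genotype. Immunoprecipitation was on whole cultures, and acetylation in more cells cannot be told apart from more acetylation per cell.

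With 2 hours of hIFNb, H3K27ac rose at the promoters of 7 of the 9 genes, most at MX1, by 7.03-fold, and at SHFL, by 6.51-fold, then at MX2, RTP4 and SAMHD1, by 3.68-, 3.39- and 3.12-fold, and least at ISG20 and BST2, by 1.85- and 1.73-fold. The promoter peaks of the paralogs SAMD9 and SAMD9L did not pass, though SAMD9L did in a fit that compares each clone with itself. Changes are differences of log2(score + 1) between treated and untreated libraries, averaged over both genotypes, in a limma model of all 8 libraries, with p-values adjusted over all 31961 peaks and a call at an adjusted p under 0.05. SHFL had untreated scores of 3 to 16, and its log2 change fell from 2.70 to 1.84 with 10 added to the score in place of 1. MX2 ran from 1.67 to 2.09 over all settings, so SHFL stood less far apart there. Of the 16 peaks, 10 were called higher, none lower and 6 were not called. Over all peaks, 6.55% were called higher and 2.58% lower, and among the authors' promoter peaks 6.09% were called higher. The median log2 change was 1.03 over the 16 peaks and 1.64 over the 9 promoter peaks, beside 0.11 over all promoter peaks.

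**Figure D1:**
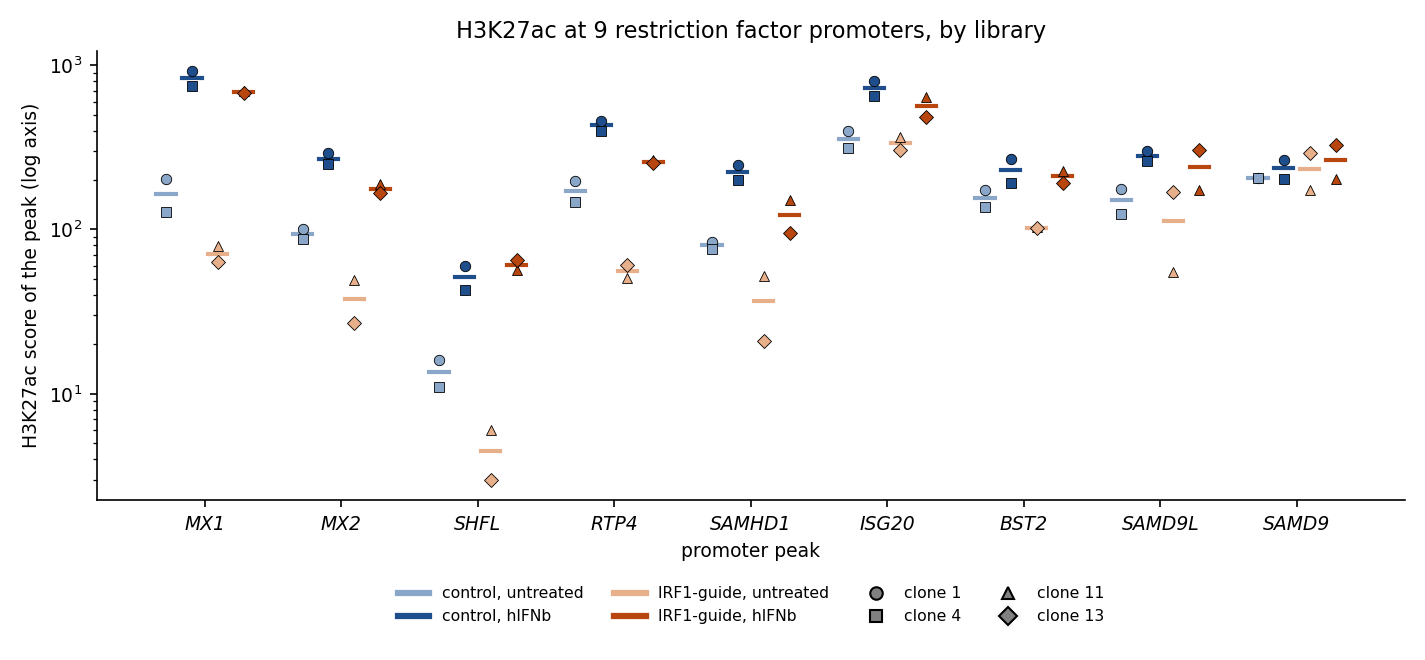
H3K27ac score (log axis) of the promoter peak of each of the 9 genes in the 8 libraries. Points are libraries, with the shape giving the clone, and bars are group means of 2 clones. At MX1 the untreated libraries lie between 63 and 202 and the hIFNb libraries between 679 and 918, while at SAMD9 the groups overlap.

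The MX genes lie next to each other on chromosome 21, and both promoters responded. The MX1 promoter peak (chr21:41414502-41429359, 14.86 kb, holding the MX1 start and the first part of the gene) scored 202 and 127 in untreated control clones 1 and 4 and 918 and 742 in the same clones after hIFNb. In IRF1-guide clones 11 and 13 it scored 79 and 63 untreated and 699 and 679 after hIFNb. The 4 treated libraries stood far above the 4 untreated ones, and the lowest values were those of the untreated IRF1-guide clones. The log2 change was 2.81 ± 0.17 (SE, adjusted p = 2.77e-05), which ranked 68 of 31961 peaks by size.

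At MX2, whose product acts against HIV and herpesviruses, the promoter peak (chr21:41357216-41369098, 11.88 kb, over the MX2 start) scored 101 and 87 in untreated control clones and 290 and 249 after hIFNb. The IRF1-guide clones gave 49 and 27 untreated and 188 and 166 after hIFNb. Treated and untreated libraries did not overlap, and within each treatment both IRF1-guide clones were below both control clones. The log2 change was 1.88 ± 0.20 (adjusted p = 0.000369). A small peak inside MX2, 33.2 kb from its start (chr21:41395195-41396822), scored 5 to 19 in all 8 libraries and changed by -0.19 ± 0.33 (adjusted p = 0.757).

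Among the factors that act on RNA, translation or nucleotides, SHFL had the lowest promoter score and one of the strongest rises. Its peak (chr19:10084107-10087400, 3.29 kb, over the start) scored 16 and 11 in untreated control clones, 60 and 43 after hIFNb, 6 and 3 in untreated IRF1-guide clones and 57 and 65 after hIFNb. After hIFNb the genotypes overlapped, while untreated they did not. The log2 change was 2.70 ± 0.28 (adjusted p = 0.000347), which was 1.84 with a pseudocount of 10.

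SAMHD1 rose at a peak over its start (chr20:36945557-36952589, 7.03 kb). Scores were 84 and 76 in untreated control clones, 246 and 200 after hIFNb, 52 and 21 in untreated IRF1-guide clones and 151 and 95 after hIFNb. IRF1-guide clone 13 was the lowest in both treatments, but every clone rose, with a log2 change of 1.64 ± 0.27 (adjusted p = 0.0046).

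ISG20 has the widest of the 16 peaks (chr15:88620314-88642747, 22.43 kb), which starts upstream of the gene and runs past its start. It scored 399 and 315 in untreated control clones, 801 and 653 after hIFNb, 363 and 304 in untreated IRF1-guide clones and 642 and 486 after hIFNb. The untreated scores of the genotypes overlapped, and all treated scores were above all untreated ones. The log2 change was 0.89 ± 0.14 (adjusted p = 0.00423). A second peak within the ISG20 gene, 9.19 kb from the authors' start (chr15:88644818-88651655), scored 46 and 39 in untreated control clones, 81 and 78 after hIFNb, 47 and 41 in untreated IRF1-guide clones and 98 and 90 after hIFNb. It rose by 0.99 ± 0.17 on the log2 scale (adjusted p = 0.00567), so that both ISG20 peaks moved.

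Of the factors at membranes, BST2 changed least among the called promoters. Its peak (chr19:17403958-17409106, 5.15 kb) is named for MVB12A in the authors' annotation and holds the RefSeq start of BST2 at 17405630, so the acetylation of these 2 genes cannot be told apart there. Scores were 173 and 137 in untreated control clones, 267 and 192 after hIFNb, 103 and 102 in untreated IRF1-guide clones and 228 and 193 after hIFNb. All treated libraries were above all untreated ones, by a small margin. The log2 change of 0.79 ± 0.16 (adjusted p = 0.013) passed narrowly: without untreated control clone 4, treated control clone 1 or treated IRF1-guide clone 11 the adjusted p was 0.0518, 0.0564 or 0.0572.

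RTP4 had 5 peaks around it on chromosome 3. The promoter peak (chr3:187362879-187372441, 9.56 kb, over the start and the whole 3692-base gene) scored 198 and 147 in untreated control clones, 460 and 400 after hIFNb, 51 and 61 in untreated IRF1-guide clones and 266 and 252 after hIFNb. Both IRF1-guide clones were below both control clones in either treatment. The log2 change was 1.76 ± 0.15 (adjusted p = 0.000143).

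A weak peak 8.84 kb upstream of the RTP4 start (chr3:187357670-187359547) scored 0 and 3 in untreated control clones, 9 and 11 after hIFNb, 1 and 9 in untreated IRF1-guide clones and 21 and 16 after hIFNb. It was called higher at 2.28 ± 0.59 (adjusted p = 0.0386), but at these scores 1 library decides, and the change was 1.44 and 0.89 with pseudocounts of 4 and 10. The call was lost without any of 6 libraries, all except untreated control clone 4 and untreated IRF1-guide clone 13, with adjusted p up to 0.117, and without the mean-variance trend. The remaining RTP4 peaks, 45.8 kb upstream and 14.4 and 29.4 kb beyond the start on the other side, were not called, at -0.27 ± 0.27, 0.46 ± 0.23 and -0.30 ± 0.17.

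SAMD9L and SAMD9 are the promoters that were not called. The SAMD9L promoter peak (chr7:93145736-93153226, 7.49 kb, over the start) scored 177 and 125 in untreated control clones, 300 and 260 after hIFNb, 55 and 169 in untreated IRF1-guide clones and 174 and 304 after hIFNb. Every clone was higher after treatment, yet untreated clone 13 stood level with treated clone 11. The log2 change of 1.07 ± 0.31 missed the threshold (adjusted p = 0.0593). Clones 11 and 13 differed in both treatments, and the change depended on which of their libraries were in the fit. It was 1.47 without untreated clone 13 and 0.67 without untreated clone 11, the highest and lowest of all settings. With the clone as a block, so that each clone is compared with itself, it was called higher at 1.07 ± 0.11 (adjusted p = 1.39e-08).

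SAMD9 was the promoter with the least change. Its peak (chr7:93114469-93121137, 6.67 kb, over the start) scored 206 in both untreated control clones, 266 and 204 after hIFNb, 175 and 290 in untreated IRF1-guide clones and 204 and 328 after hIFNb. Control clone 4 did not rise, and IRF1-guide clones 11 and 13 differed more than the treatments did. The log2 change was 0.19 ± 0.20 (adjusted p = 0.597, and 0.105 with the clone as a block).

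A peak 13.1 kb upstream of the SAMD9L start (chr7:93161473-93169949, 8.48 kb, in no gene of the 9) rose in every clone. It scored 22 and 21 in untreated control clones, 127 and 123 after hIFNb, 16 and 14 in untreated IRF1-guide clones and 38 and 54 after hIFNb. The treated control clones stood far above every other library. The log2 change over both genotypes was 2.01 ± 0.20 (adjusted p = 0.000318), larger than at the SAMD9L promoter.

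**Figure D2:**
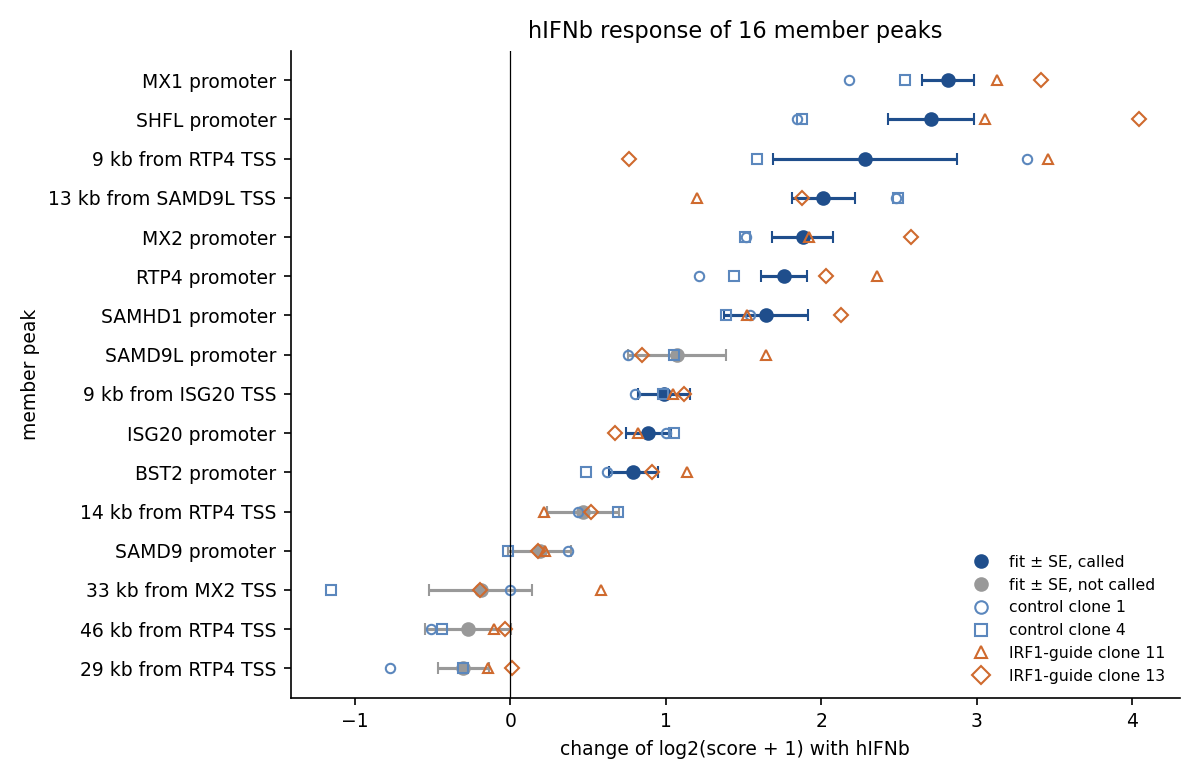
Change of log2(score + 1) with hIFNb at the 16 peaks, ordered by size. Filled points are the fitted change over all clones with its SE, dark where the adjusted p is under 0.05, and open symbols are the 4 clones. MX1 and SHFL lead at 2.81 and 2.70, and the 6 peaks in grey were not called.

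Direction was shared widely. In 12 of the 16 peaks the score was higher after hIFNb in all 4 clones, against 19.9% of all peaks, and in 9, of which 7 were promoters, the 4 treated libraries were above all 4 untreated ones, against 7.22% of all peaks. Only the peak 45.8 kb upstream of RTP4 was lower in all 4 clones. With the clone as a block 12 peaks were called higher and 1 lower, where 16.6% of all peaks were called higher and 15.9% lower, and the peaks added were the SAMD9L promoter and the peak 14.4 kb beyond the RTP4 start (0.46, adjusted p = 0.0215), with the peak 29.4 kb beyond it called lower (-0.30, adjusted p = 0.0185).

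Within the control clones, 6 of the 16 peaks were called higher and none lower, beside 4.07% and 0.676% of all peaks: the promoters of MX1 (2.36 ± 0.24, adjusted p = 0.00108), SHFL (1.86 ± 0.39), MX2 (1.51 ± 0.28), RTP4 (1.33 ± 0.21) and ISG20 (1.03 ± 0.20), and the peak upstream of SAMD9L (2.49 ± 0.29, adjusted p = 0.00186). Only MX1 and the peak upstream of SAMD9L were called without each library in turn. SHFL, MX2 and ISG20 lost their call without any 1 of the 4 control libraries, with adjusted p of 0.0733 to 0.178, 0.0633 to 0.125 and 0.050 to 0.151. RTP4 lost it without untreated clone 4 (adjusted p = 0.0632) or treated clone 1 (0.0891). In a fit of only the 4 control libraries SHFL (adjusted p = 0.0523) and ISG20 (0.0516) were not called, nor was ISG20 without the trend (0.0854). With the clone as a block 11 peaks were called higher and 1 lower, where 13.4% and 11.3% of all peaks were.

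Within the IRF1-guide clones, 5 of the 16 peaks were called higher and none lower, beside 1.2% and 0.025% of all peaks. These were the promoters of SHFL (3.55 ± 0.39, adjusted p = 0.00235), MX1 (3.27 ± 0.24, adjusted p = 0.000369), MX2 (2.25 ± 0.28) and RTP4 (2.19 ± 0.21), and the peak upstream of SAMD9L (1.54 ± 0.29, adjusted p = 0.0305). MX1, SHFL and RTP4 kept the call without each library in turn, MX2 lost it without treated clone 11 (adjusted p = 0.0716), and the peak upstream of SAMD9L lost it without any 1 of 7 libraries, all except untreated control clone 4. Without treated clone 11, 3 peaks were called. The SHFL change was 2.30 with a pseudocount of 10, below that of MX1 (3.12), and in a fit of only the 4 IRF1-guide libraries SHFL (adjusted p = 0.0654), MX2 (0.0934) and the peak upstream of SAMD9L (0.223) were not called. SAMHD1 missed narrowly in either genotype, at 1.46 ± 0.38 in control clones (adjusted p = 0.0568) and 1.82 ± 0.38 in IRF1-guide clones (adjusted p = 0.0518), and was called in both with the clone as a block. That fit called 11 peaks higher and none lower, where 7.44% and 6.64% of all peaks were.

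Whether the response differed between genotypes was tested as the difference of the responses, IRF1-guide minus control. None of the 16 peaks was called, and none of all peaks (0%), while 4 of the 16 had an unadjusted p under 0.05, as 3.94% of all peaks did. The differences were positive at 8 of the 9 promoters, with 1.69 ± 0.55 at SHFL, 0.91 ± 0.33 at MX1, 0.87 ± 0.30 at RTP4 and 0.74 ± 0.39 at MX2, and -0.28 ± 0.29 at ISG20. With the clone as a block, where 0.106% of all peaks were called higher and 0.657% lower, 2 were called: MX1 (0.91 ± 0.17, adjusted p = 0.00663) and RTP4 (0.87 ± 0.19, adjusted p = 0.0251). At MX1 control clones 1 and 4 rose 4.53- and 5.80-fold and IRF1-guide clones 11 and 13 rose 8.75- and 10.6-fold. At RTP4 the same clones rose 2.32-, 2.71-, 5.13- and 4.08-fold. They rose 2.85-, 2.84-, 3.78- and 5.96-fold at MX2 and 1.54-, 1.40-, 2.20- and 1.88-fold at BST2. At ISG20, where the IRF1-guide clones rose less, the values were 2.0-, 2.07-, 1.77- and 1.60-fold. The differences at MX2, BST2 and ISG20 were not called. How often the clones of all peaks separate by genotype was not counted, so no weight is put on such separation. SHFL rose 3.59- and 3.67-fold in the control clones and 8.29- and 16.5-fold in the IRF1-guide clones, from untreated scores of 3 to 16, and was not called (adjusted p = 0.118 with the block). The peak upstream of SAMD9L had the opposite sign, at -0.95 ± 0.41, and was not called either. It rose 5.57- and 5.64-fold in control clones 1 and 4 and 2.29- and 3.67-fold in IRF1-guide clones 11 and 13.

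In untreated cells most of the promoters carried less H3K27ac in the IRF1-guide clones, but no difference passed the test. Both IRF1-guide clones were below both control clones at 6 of the 9 promoters, MX1, MX2, SHFL, RTP4, SAMHD1 and BST2, and at 9 of the 16 peaks, against 22.5% of all peaks. They were above both control clones at 1 of the 16 peaks, not a promoter, and the share of all peaks in that direction was not counted. The log2 differences were -1.60 ± 0.21 at RTP4 (adjusted p = 0.0532), -1.43 ± 0.39 at SHFL (0.202), -1.34 ± 0.28 at MX2 (0.114), -1.24 ± 0.38 at SAMHD1 (0.248), -1.17 ± 0.24 at MX1 (0.112) and -0.58 ± 0.22 at BST2 (0.348). SAMD9L, ISG20 and SAMD9 differed by -0.62 ± 0.45, -0.09 ± 0.20 and 0.13 ± 0.29. None of the 16 was called, as none of all peaks was (0%), and 7 of the 16 had an unadjusted p under 0.05, as 12% of all peaks did. The median over the 9 promoters was -1.17, beside -0.02 over all promoter peaks.

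**Figure D3:**
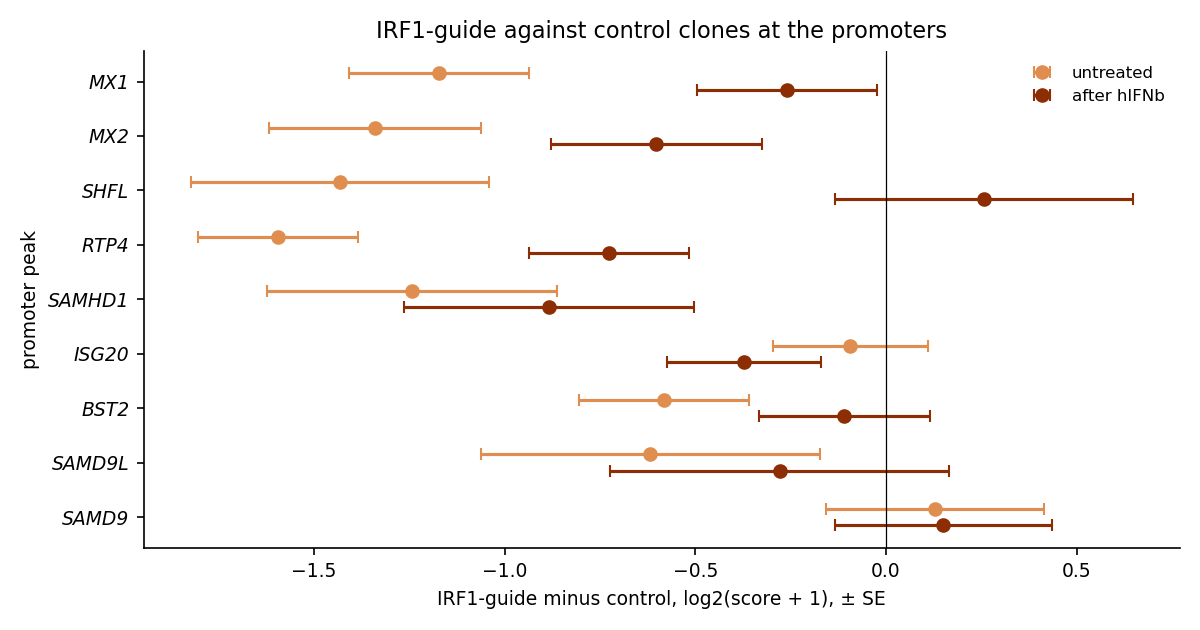
Difference of log2(score + 1) between IRF1-guide and control clones at the 9 promoter peaks, untreated (light) and after hIFNb (dark), with its SE. No difference passed an adjusted p of 0.05. At MX1 and SHFL the difference was -1.17 and -1.43 untreated and -0.26 and 0.26 after hIFNb.

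After hIFNb the genotypes were closer at several promoters but not at ISG20 or SAMD9. Without the block, the difference of the responses was called at none of them. The differences were -0.26 ± 0.24 at MX1, 0.26 ± 0.39 at SHFL, -0.11 ± 0.22 at BST2, -0.60 ± 0.28 at MX2, -0.73 ± 0.21 at RTP4 (adjusted p = 0.11), -0.88 ± 0.38 at SAMHD1 and -0.37 ± 0.20 at ISG20, none of them called. SAMD9L and SAMD9 differed by -0.28 ± 0.45 and 0.15 ± 0.29, also not called. Both IRF1-guide clones were below both control clones at 5 of the 9 promoters and 7 of the 16 peaks, against 24.2% of all peaks. They were above both control clones at 3 of the 16 peaks, none a promoter, and the share of all peaks in that direction was not counted. One of the 16 peaks was called lower in the IRF1-guide clones and none higher, beside 2.19% and 0.238% of all peaks. It was the peak upstream of SAMD9L, at -1.44 ± 0.29 (adjusted p = 0.0295), and its call was lost without any 1 of the 4 treated libraries (adjusted p = 0.0785 to 0.18). On clone means over both treatments, 2 clones against 2, none of the 16 was called (0.457% of all peaks lower and 0.0594% higher) and 7 had an unadjusted p under 0.05, as 14.7% of all peaks did. RTP4 was nearest at -1.16 ± 0.20 (adjusted p = 0.0527). The 165 calls over all peaks in this test fell to 0 without any 1 of the 4 clones.

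Levels were compared between genes as score per kb of peak. Untreated control clones ranked SAMD9 at 30.9 and BST2 at 30.1 first, followed by SAMD9L at 20.2, RTP4 at 18.0 and ISG20 at 15.9, then SAMHD1 at 11.4, MX1 at 11.1, MX2 at 7.91 and SHFL at 4.10, where the median peak over all libraries had 13.7. The clones overlapped between SAMD9 and BST2, between SAMD9L, RTP4 and ISG20 and between SAMHD1 and MX1, so the order within those sets is not beyond the spread. After hIFNb MX1 came first in either genotype, at 55.9 in control and 46.4 in IRF1-guide clones, in the 99.7th and 99.5th percentile of all peaks from the 30.8th and 5.9th before treatment. Its clones overlapped with those of BST2 in control clones and of SAMD9 in IRF1-guide clones, so that first place is not beyond the spread. SAMD9 stayed between 30.9 and 39.9 in the 4 groups. The SAMD9 and BST2 promoters were already high in untreated control clones, while MX1, MX2, SHFL and SAMHD1 were below the median peak.

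**Figure D4:**
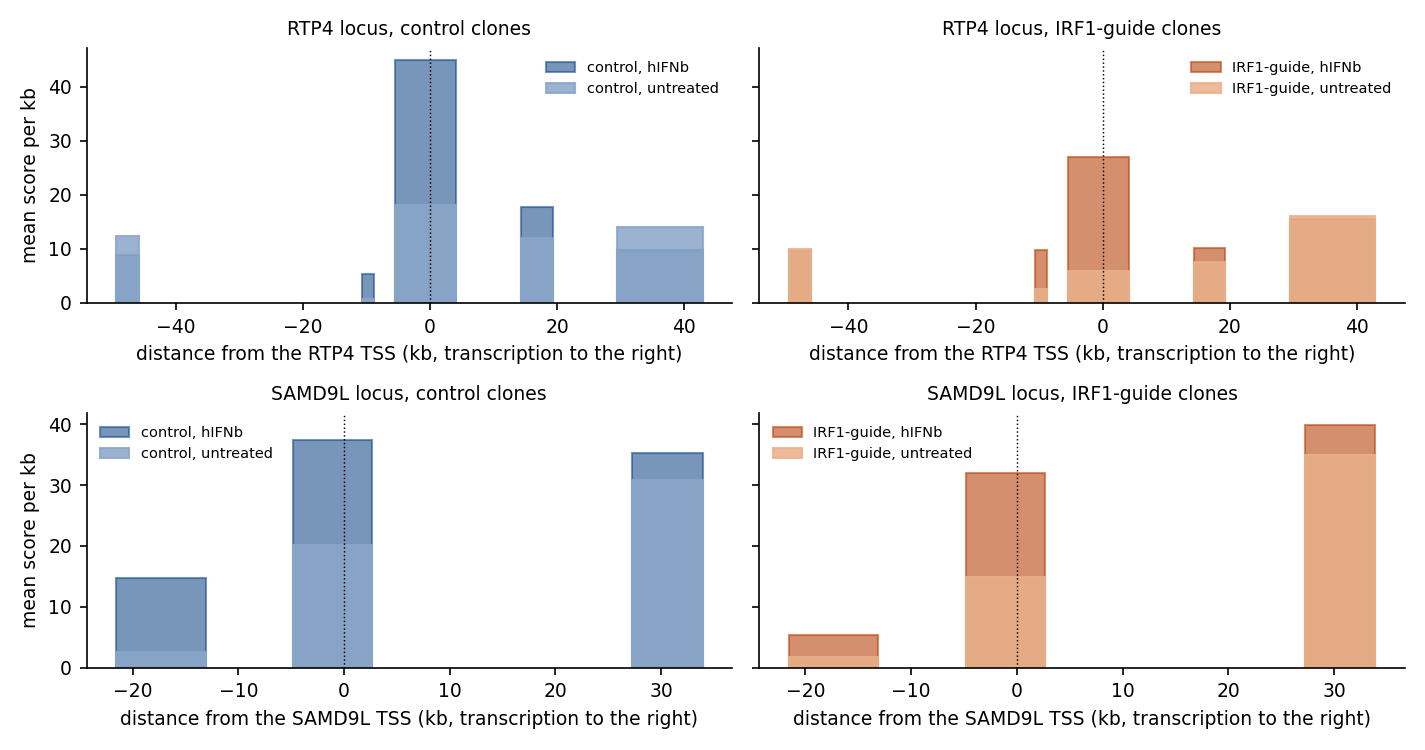
Mean H3K27ac score per kb of peak (n = 2 clones) along the RTP4 locus (top) and the SAMD9L locus (bottom, with the SAMD9 promoter at the right), in control clones (left) and IRF1-guide clones (right), by distance from the start. Blocks are peaks, light untreated and dark after hIFNb. The RTP4 promoter stood at 18.0 and then 45.0 in control clones and at 5.86 and then 27.1 in IRF1-guide clones, and the peak upstream of SAMD9L at 2.54 and 14.7, and at 1.77 and 5.43.

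The SAMD9 and SAMD9L promoters also differed between the 2 IRF1-guide clones. Averaged over both treatments, clone 13 was above clone 11 by 0.70 at SAMD9 and 1.20 at SAMD9L on the log2 scale, where 13.96% and 3.09% of all peaks differed by at least as much. SAMHD1 differed the other way, by -0.97 (6.25% of all peaks). The peaks around them differed in the same direction: the median was 0.52 over 26 peaks 0.1 to 1 Mb from the centre of SAMD9, 23 of them positive, 0.49 over 58 peaks at 1 to 5 Mb and 0.39 over 429 peaks at 5 to 20 Mb, beside 0.27 over chromosome 7 and 0.02 over all peaks. The peak upstream of SAMD9L differed by 0.16. In the control clones, clone 1 was above clone 4 by 0.35 at SAMD9L and 0.19 at SAMD9, and by a median of 0.36 over chromosome 7. These distances were chosen after the values were seen, and the part of the regional difference in the SAMD9L result was not tested.

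Across the 8 libraries the log2 scores of most promoters ran in parallel, with SAMD9 and SAMD9L the loosest. Pearson's r over the 36 pairs of promoters had a median of 0.89 and was highest for MX1 with SHFL, at 0.98, and lowest for SAMHD1 with SAMD9, at -0.13. SAMD9L gave 0.53 with SAMHD1, 0.61 with ISG20, 0.66 with MX2 and 0.67 with SAMD9. The libraries share treatments, clones and genotypes, and no test was made of these values. Among 9846 promoter peaks of other genes with a mean score of at least 10, those most like MX1 were HERC6 (r = 0.998), RSAD2 and SP100, and those most like RTP4 were UBE2L6, PIK3AP1 and TAP1. The closest for MX2 were IFIT3, XAF1 and RNF31, for SHFL HERC6, TRIM38 and IFI6, and for SAMHD1 HLA-H, XAF1 and CXorf49. For BST2 they were FEZ2, LY6E-DT and ZNF200, for ISG20 CSF1, LOC107986531 and ACOT1, for SAMD9L TMEM140, HECTD4 and TUBG1 and for SAMD9 FOXA2, MIR3138 and LOC105370688. The share of promoter peaks with an r above 0.9 was 3.25% for MX1 and 0.183% for SAMD9.

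Other genes of the pathway were counted from lists. Of 12 genes for interferon signalling, 10 had a promoter peak, and 6 were called higher with hIFNb over all clones and none lower. Among them were SOCS1, a feedback inhibitor of JAK kinases (2.31 ± 0.19), STAT2 (1.78 ± 0.16) and USP18, which restrains the receptor (1.65 ± 0.20). Of 43 other interferon-linked effectors, 30 had a promoter peak and 21 were called higher and none lower, led by RSAD2, the radical SAM enzyme viperin (3.52 ± 0.20), OAS2 and OAS3, which make oligoadenylates (2.69 ± 0.18 and 2.29 ± 0.14), and the GTPase GBP5 (2.50 ± 0.21). The medians of these lists were 1.14 and 1.07, beside 0.11 over all promoter peaks.

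Restriction factors that are not classed as interferon-stimulated, were counted too: of 11 genes 5 had a promoter peak (SERINC3, SERINC5, DAXX, ATRX and SMC6) and none was called, with changes from -0.27 to 0.26. Nor was any of the 7 promoter peaks among 9 genes of dNTP supply, which makes the substrate of SAMHD1, with changes from -0.29 to 0.36. Since 6.09% of all promoter peaks were called higher, a count of 0 in lists this short does not set them apart. The ACTB promoter changed by 0.15 ± 0.19 (adjusted p = 0.671). In these 4 lists no difference between the genotypes was called in either treatment or in the response, and with the clone as a block 1 signalling and 1 effector promoter had a larger response in the IRF1-guide clones.

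Around the genes, 20 further peaks lay within 100 kb of a gene body, of which 3 were called higher with hIFNb and none lower, where 6.55% and 2.58% of all peaks were. A weak peak (chr21:41283585-41285604) on the far side of MX2, had mean scores of 3 and 18.5 in control clones and 1.5 and 23.5 in IRF1-guide clones (2.94 ± 0.45, adjusted p = 0.00331). A peak near BST2 (chr19:17411899-17413649) had mean scores of 5 and 39.5 in control clones and 4.5 and 9.5 in IRF1-guide clones (1.97 ± 0.40, adjusted p = 0.014), and the PGLS promoter rose by 0.61 ± 0.16 (adjusted p = 0.044). These 3 were named after their values were seen.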

How the data were processed

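H3K27ac was measured in 8 libraries from 4 CFPAC1 clones. Bowtie2 and the build GRCh38 (hg38) are named in the submitters' processing notes. Which peak caller, counter and scaling were used was not given in the sources used here. Each value of the deposited table is a score, a count for 1 peak in 1 library that the authors normalised and rounded to whole numbers. Because these are not raw counts, log2(score + 1) was fitted in limma 3.58.1 (R 4.3.3) with group means, empirical Bayes moderation with a trend and Benjamini-Hochberg adjustment over 31961 peaks, without a filter. Errors are SE of the fit. The 4 clones are the replicates. The libraries of a clone pair by design, and over all peaks the correlation of their deviations from the group mean was 0.437 for control and 0.392 for IRF1-guide clones. Clone as a block was an alternative, with pseudocounts of 4 and 10, a minimum mean score of 10, rescaling by median ratios, quantile normalisation, no trend, 4 libraries only, each library left out, and a narrower rule for peaks. Scripts were tested on simulated data. Gene positions and promoter sequences came from RefSeq on GRCh38.p14. The genes, the lists and the rule for named genes (each promoter peak, each called peak, up to 4 genes a list, 3 most alike promoters) were chosen with earlier results of these data known. A gene that the rule takes from a list is not reported here.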

Additional observations from a re-analysis of the deposited data

Results flagged for a closer look

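The response to hIFNb differed between the genotypes at 2 promoters in the fit with the clone as a block, by 0.91144 at MX1 and 0.86953 at RTP4 (log2, IRF1-guide minus control). In the fit without the block neither difference passed (adjusted p = 1.00 for both). The untreated scores of the IRF1-guide clones were below those of the control clones at both promoters, and the part of that lower start in the difference was not tested.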

How the results depend on the processing

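Over all clones, 10 peaks were called higher as reported, and under no alternative did that count move by more than 1.5 times. With the clone as a replicate block, 1 peak was lower over all clones, 11 were higher and 1 lower in control clones, 11 were higher in IRF1-guide clones, and 2 had a larger response in IRF1-guide clones. Over all 31961 peaks the block raised the calls from 2918 to 10363 over all clones, from 1516 to 7867 in control clones, from 391 to 4502 in IRF1-guide clones and from 0 to 244 for the difference between the responses. Leaving out 1 library gave 1426 to 2111 calls over all clones, 206 to 1489 in control clones, 44 to 339 in IRF1-guide clones and 0 to 851 between the genotypes after hIFNb (776 as reported). Among the 16 peaks it gave 2 to 7 rises in control clones (6 as reported, and 2 or 3 without a control library), 3 to 5 in IRF1-guide clones (3 without treated clone 11), and 0 of the 1 difference after hIFNb without any treated library. A fit of only the 4 libraries compared gave 2 rises in IRF1-guide clones. Taking only peaks that hold a start or overlap a gene left 0 lower after hIFNb, and pseudocounts of 4 and 10 gave 1 lower on clone means. The small SAMD9 promoter change ran from -0.014 (without treated clone 1) to 0.367 in control clones and from -0.164 (without untreated clone 11; -0.143 without treated clone 13) to 0.561 in IRF1-guide clones, and was not called in any setting. The causes of these shifts were not tested, apart from fewer libraries in the fit. Where 1 library is left out, the lone library of a group is assumed to vary like the others.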
